A study of Homo sapiens with 20 samples.

Results

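Transcript isoform usage was compared between K562 cells that had lost 1 or both of a pair of silencer elements and K562 cells that had received an empty vector. Usage is the share of a gene's RNA that each of its transcripts takes, here as a percentage of the gene's TPM, a length-scaled measure of its abundance. A gene entered where it had 2 or more transcripts and a mean level of at least 5 TPM over the 8 libraries. This rule kept 8108 genes with 78852 transcripts, of 53153 genes in all and 20749 with 2 or more transcripts. The mean levels just inside the limit were 5.0034 TPM for DEPDC4 and 5.0044 TPM for EEF1AKMT1, and those just outside were 4.9974 TPM for ASB9 and 4.9934 TPM for DGKA. Of the kept genes, 7774 code for protein.

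K562 is an erythroleukemia cell line that expresses embryonic and fetal globins. All 8 libraries came from K562 cells put through the CRISPR excision procedure: EV with the empty vector, S1KO without silencer 1, S2KO without silencer 2, and DKO without both, each with 2 replicate libraries. The labels name no treatment beyond the excision and do not say whether a line was 1 clone or whether replicates were separate cultures, so the p values measure the spread between these libraries only. The 6 excised libraries were compared as 1 group with the 2 EV libraries, and the excisions were then compared one by one. Silencer elements are stretches of DNA that lower the transcription of genes they contact.

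Most human genes give several transcripts. Alternative promoters give different first exons, alternative splicing joins or skips internal exons, and alternative polyadenylation sites give different ends. Retained introns and premature stop codons can send a transcript to nonsense-mediated decay, the pathway that degrades such RNA. A share can therefore move while the gene's total stays, and a total can move because 1 promoter gained activity while the other transcripts held their level. The software assigns short reads to overlapping transcripts by probability, so the shares of near-identical transcripts carry an assignment error that the files give no measure of.

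The sequences that separate the transcripts of 5 genes with large differences are shown first, because these results turn on which start or exon a transcript uses. Coding sequences were built from the GENCODE 29 transcripts and annotation (GRCh38) for the identifiers in the files. The files' own lengths differ from GENCODE 29 for FGF13-204 (913 against 1165 bases), FGF13-205 (1990 against 1625) and TSC22D1-201 (1749 against 3135). They also differ for HBE1-201 (827 against 918), HBE1-203 (578 against 616), ZNF227-202 (2936 against 2993), PMP22-201 (1810 against 1861), PITPNB-205 (2852 against 2963), VPS13D-212 (2498 against 3838) and ACSS1-205 (4877 against 3509). What is said below of starts, ends and coding sequences holds for the GENCODE 29 models. Capitals mark bases that the paired transcript's coding sequence lacks, and lower case marks shared bases. FGF13 encodes an intracellular member of the fibroblast growth factor family that binds voltage-gated sodium channels. Its transcripts differ in their 5' ends. FGF13-204 adds 87 bases before the start codon that FGF13-205 uses, and FGF13-201 starts on another first exon with 26 bases of its own. These stretches lie within chrX:138857612-139204107, chrX:138857612-138857641 and chrX:138708901-138739269, all on the minus strand.
FGF13-204: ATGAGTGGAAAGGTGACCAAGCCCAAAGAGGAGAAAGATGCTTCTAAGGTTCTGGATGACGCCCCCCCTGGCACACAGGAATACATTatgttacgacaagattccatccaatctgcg
FGF13-205: atgttacgacaagattccatccaatctgcg
FGF13-201: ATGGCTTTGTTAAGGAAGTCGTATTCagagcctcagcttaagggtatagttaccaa

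ANK3 encodes ankyrin-G, which ties membrane proteins to the spectrin skeleton. ANK3-202 starts inside the gene and has 3003 coding bases, all but the first 15 of which are also the end of the 5604 coding bases of ANK3-216. The printed starts lie within chr10:60139059-60140367 and chr10:60279613-60572527 on the minus strand.
ANK3-202: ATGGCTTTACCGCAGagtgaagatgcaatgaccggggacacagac
ANK3-216: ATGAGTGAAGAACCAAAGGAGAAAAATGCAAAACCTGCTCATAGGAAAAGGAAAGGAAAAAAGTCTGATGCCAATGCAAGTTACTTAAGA

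TSC22D1 encodes a leucine zipper protein of the TSC22 family. The long form TSC22D1-203 has 3219 coding bases, of which the first 2910 are its own, and the short form TSC22D1-201 has 432, of which the first 123 are its own. The first 90 coding bases of each lie at chr13:44575985-44576074 and chr13:44436539-44436628 on the minus strand.
TSC22D1-203: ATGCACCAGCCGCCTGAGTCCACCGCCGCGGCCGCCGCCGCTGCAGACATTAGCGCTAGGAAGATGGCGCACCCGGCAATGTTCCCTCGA
TSC22D1-201: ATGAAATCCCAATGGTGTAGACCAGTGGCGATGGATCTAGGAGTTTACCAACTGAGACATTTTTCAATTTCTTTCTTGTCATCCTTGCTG

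Internal exons separate the transcripts of CEP131, a protein of the centrosome and its satellites. CEP131-203 carries 108 coding bases that CEP131-202 lacks, within chr17:81192578-81193939 on the minus strand.
CEP131-203: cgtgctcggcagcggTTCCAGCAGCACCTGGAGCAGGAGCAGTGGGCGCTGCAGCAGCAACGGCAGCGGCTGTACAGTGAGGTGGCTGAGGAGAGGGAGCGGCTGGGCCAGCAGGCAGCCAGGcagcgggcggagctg

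PHACTR2-207, of a phosphatase and actin regulator gene, carries 240 coding bases that PHACTR2-201 lacks, within chr6:143753898-143765275 on the plus strand.
PHACTR2-207: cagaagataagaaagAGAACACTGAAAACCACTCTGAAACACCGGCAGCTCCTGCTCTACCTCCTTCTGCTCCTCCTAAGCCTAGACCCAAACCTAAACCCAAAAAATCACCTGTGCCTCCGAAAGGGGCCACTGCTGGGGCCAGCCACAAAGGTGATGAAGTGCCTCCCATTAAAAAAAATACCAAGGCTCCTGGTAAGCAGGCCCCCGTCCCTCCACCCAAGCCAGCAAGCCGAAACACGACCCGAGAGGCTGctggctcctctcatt

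The libraries held between 62199530 and 111291203 estimated counts, and the DKO pair was the shallowest. All 10 erythroleukemia markers reached 1 TPM in all 8 libraries, with a summed level of 2448 to 6608 TPM in EV and 6110 to 25480 TPM in the excised libraries. MS4A1, CD79A, MPO, KRT5 and KRT14, markers of lymphoid, myeloid and epithelial cells, stayed under 0.1 TPM. Other such markers (CD3D, LYZ, ITGAM, COL1A1, COL1A2 and EPCAM) reached 1 TPM in some library. The summed levels in EV and after excision were 18.0 to 20.1 and 5.90 to 34.7 TPM for the myeloid list and 32.7 to 45.9 and 35.3 to 78.3 TPM for the fibroblast and epithelial list. Their part in the results was not tested. EV replicate 1 lay closer to S2KO replicate 1 than to EV replicate 2. The leading transcript's share differed by a median of 2.65 points between the former pair and by 3.98 points between the latter. The labels name no batch.

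Of the 78852 transcripts, 64486 in 8060 genes passed the filter on low counts and were tested with edgeR (diffSpliceDGE on a quasi-likelihood fit, Benjamini-Hochberg adjustment over all 81394 transcripts tested). At an adjusted p under 0.05, 205 transcripts of the 8108 genes differed in usage between excised and EV cells, against 0.278% called over all transcripts tested. Of these, 161 rose (0.216% over all transcripts tested) and 44 fell (0.0614%). At an unadjusted p under 0.05 there were 1931. At the gene level 163 genes were called, with 1.44% called over all genes tested. Most of these differences were small. The called transcripts differed by a median of 2.20 points and between 0.127 and 29.05 points, and 157 of the 205 stayed under 5% of their gene in both groups. Of the 161 rises, 79 were listed at 0 in both EV libraries.

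Fewer calls met a stricter description. The 6 excised libraries lay beyond both EV libraries for 86 of the called transcripts, and 8.25% of all transcripts tested had groups that did not overlap. A difference of at least 10 points with separate groups was found for 13 called transcripts of the 8108 genes, 6 higher and 7 lower in the excised cells. Over all 81394 transcripts tested, 23 were of this kind (0.0283%). The 13 were part of 308 tested transcripts of the 8108 genes with that size of difference and separate groups, and the rest did not pass the test. Of the 64486 tested transcripts of these genes, 638 differed by at least 10 points and 5070 had separate groups. How often chance would separate the groups was not tested. Protein-coding transcripts made up 72.7% of the called transcripts and 49.8% of those tested, and retained introns 7.80% and 22.6%. On simulated counts with the spread of these transcripts the test also called transcripts that had not been changed, so the counts of calls may be too large. A single call is therefore given here beside its values by library. Of the 13 large calls, DESeq2 made 11, limma on log2 TPM ratios 3 with a pseudocount of 0.5 and 2 with 0.1, and 9 were made by neither limma fit.

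**Figure D1:**
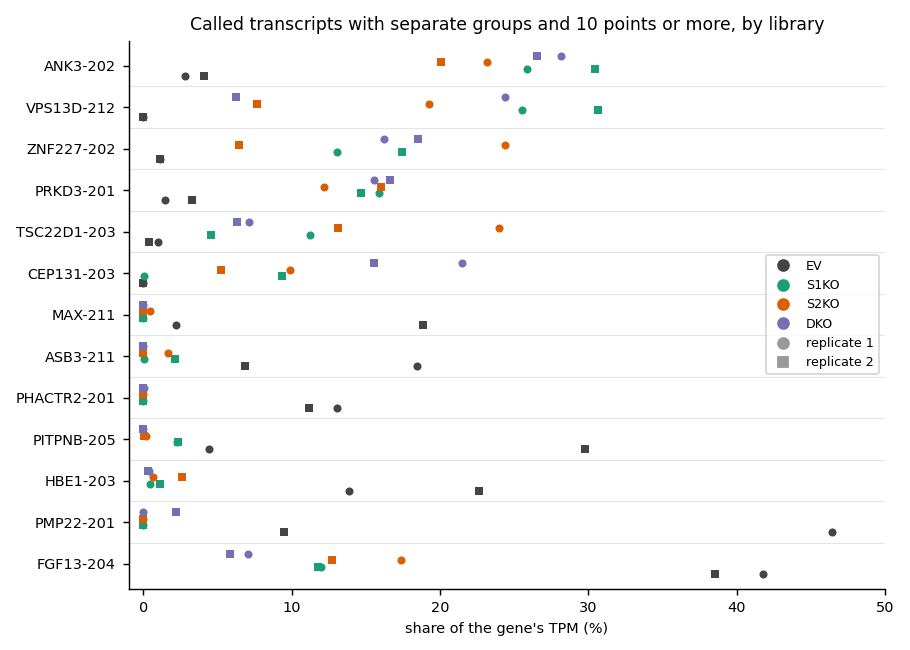
Share of the gene's TPM (x axis, %) in each of the 8 libraries for the 13 called transcripts with a difference of at least 10 points and separate groups (y axis). Colours mark the groups and shapes the replicates. The 6 excised libraries lie on 1 side of both EV libraries in each row, and the EV pair is wide apart for PMP22-201, PITPNB-205, MAX-211 and ASB3-211.

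Several of the large differences lay between transcripts with different starts. FGF13-204 took 41.8% and 38.6% of FGF13 RNA in EV. In S1KO it took 11.98% and 11.8%, in S2KO 17.4% and 12.7%, and in DKO 7.06% and 5.81%. Its share fell by 29.05 points, from 40.2% ± 2.26 (SD, n = 2) to 11.1% ± 4.18 (SD, n = 6), with an edgeR adjusted p of 0.0300. FGF13-205 held the complement, with 42.4% and 41.9% in EV and 61.8% to 75.3% in the excised libraries, although it did not pass the test (edgeR adjusted p = 1). Both EV libraries had the forms at near-equal levels, and each excised library was led by FGF13-205.

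In TPM the pair behaved differently. FGF13-204 stood at 2.25 and 2.96 TPM in EV and between 2.13 and 5.27 TPM in the excised libraries, so these ranges overlapped. FGF13-205 stood at 2.29 and 3.22 TPM in EV and between 17.1 and 27.6 TPM in the excised libraries. FGF13 as a whole rose from 6.54 ± 1.62 TPM (SD, n = 2) to 33.1 ± 5.89 TPM (SD, n = 6), a log2 change of 2.495 (SE 0.27, edgeR adjusted p = 0.00485). The lower share of FGF13-204 thus went with higher levels of FGF13-205 rather than with lower levels of its own. The edgeR call on FGF13-204 was lost without EV replicate 1 (adjusted p = 0.173), EV replicate 2 (0.190), S1KO replicate 1 (0.0602), DKO replicate 1 (0.0923) or DKO replicate 2 (0.0911), and with both DKO libraries left out (0.224). With limma the adjusted p was 0.0400 at a pseudocount of 0.5 and 0.140 at 0.1.

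ANK3-202, the form that starts inside the gene, had 2.77% and 4.07% of ANK3 RNA in EV. The S1KO libraries had 25.9% and 30.4%, those of S2KO 23.1% and 20.1%, and those of DKO 28.1% and 26.5%. The share rose by 22.3 points (edgeR adjusted p = 0.00704), and the lowest excised value was far above the higher EV value. ANK3-217 was the leading form in EV with 32.2% and 22.6%, against 6.39% to 12.7% after excision, and ANK3-216 had 18.2% and 22.0% against 1.15% to 7.28%. Neither passed the test (edgeR adjusted p = 1 and 0.0685). ANK3 as a whole was at 2.20 and 2.44 TPM in EV and at 4.63 to 17.8 TPM after excision, a difference that did not pass (edgeR adjusted p = 0.113). The gene thus met the limit of 5 TPM only through its excised libraries. Without either EV library the usage call on ANK3-202 was lost (edgeR adjusted p = 0.156 without EV replicate 1 and 0.118 without EV replicate 2). The limma adjusted p was 0.133 at a pseudocount of 0.5 and 0.0189 at 0.1.

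PRKD3 encodes protein kinase D3, a serine/threonine kinase activated by diacylglycerol. PRKD3-201 and PRKD3-202 have the same 2670 coding bases and start 815 bases apart. PRKD3-201 held 1.47% and 3.26% in EV, and 15.9%, 14.6%, 12.1%, 15.99%, 15.5% and 16.6% in the excised libraries from S1KO replicate 1 to DKO replicate 2. The 6 excised values lay close together and far above both EV values. The gene's total was 13.8 ± 1.05 TPM (SD, n = 2) in EV and 12.6 ± 1.30 TPM (SD, n = 6) after excision and did not pass the test (edgeR adjusted p = 0.663). The share rose by 12.8 points (edgeR adjusted p = 0.00243). PRKD3-201 was the only transcript of the 13 called by edgeR, DESeq2 and both limma fits. Its edgeR call was lost without EV replicate 1 (adjusted p = 0.240).

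HBE1 encodes epsilon globin, the embryonic beta-like chain. HBE1-203 and HBE1-201 have the same coding sequence of 441 bases and differ in their 5' ends. Their annotated starts lie 235707 bases apart, with that of HBE1-201 upstream. The files' lengths differ from the annotation for both forms, as given above. HBE1-203 held 13.8% and 22.6% in EV and between 0.312% and 2.58% after excision, a fall of 17.3 points (edgeR adjusted p = 1.37e-05). HBE1-203 itself was at 14.2 and 39.9 TPM in EV and at 16.8 to 38.8 TPM in the excised libraries, which lay within the EV range. HBE1-201 was at 74.8 and 115.6 TPM in EV and at 1359 to 7521 TPM after excision. The total rose by 4.93 on the log2 scale (SE 0.70, edgeR adjusted p = 0.0160), with the higher level assigned to HBE1-201. How far read assignment moved the split between these forms was not tested. For HBE1-203 the limma adjusted p was 0.0227 at a pseudocount of 0.5 and 0.0754 at 0.1.

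**Figure D2:**
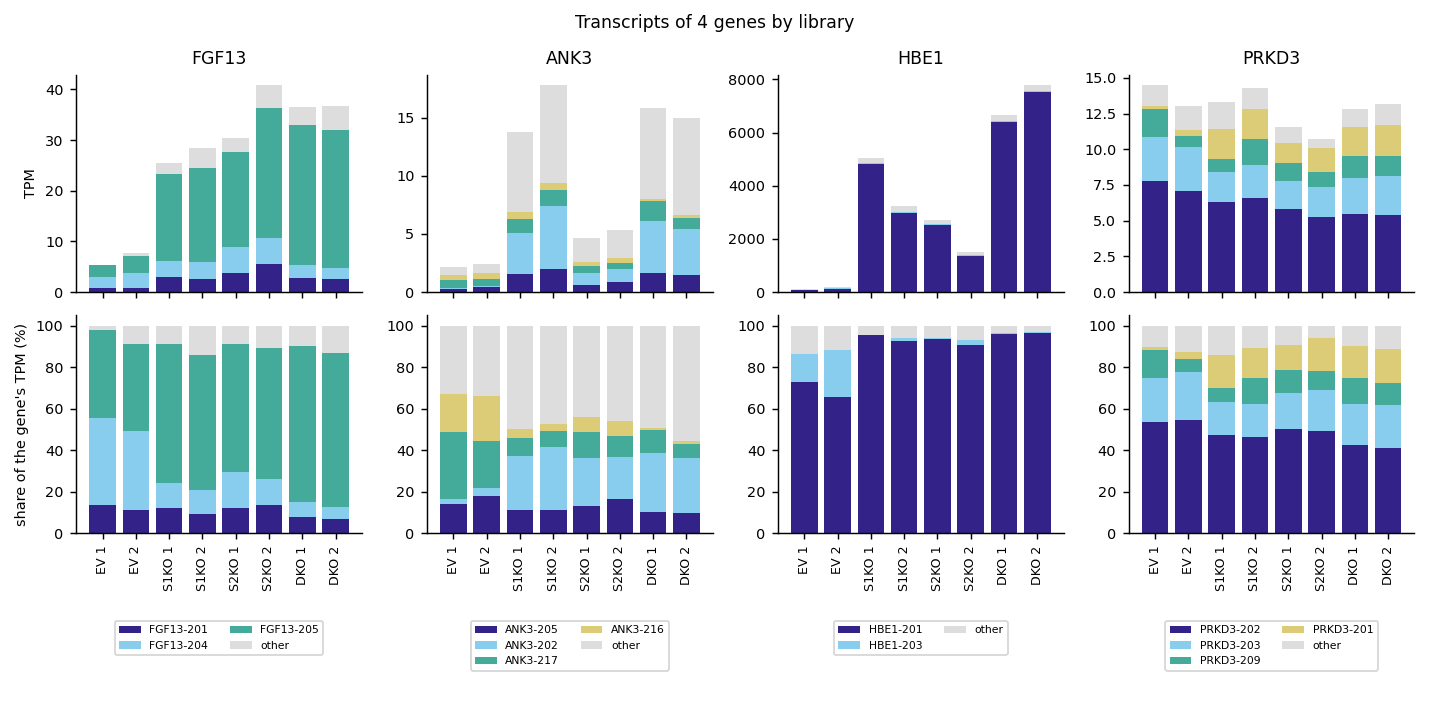
Transcripts of FGF13, ANK3, HBE1 and PRKD3 by library (x axis), as TPM in the upper row and as a share of the gene's TPM (%) in the lower row. Each colour is a named transcript and grey is the rest of the gene. The totals of FGF13, ANK3 and HBE1 are higher in all 6 excised libraries, and the total of PRKD3 is not, while PRKD3-201 takes 12.1% to 16.6% after excision and at most 3.26% in EV.

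The long form of TSC22D1 was next. In EV, TSC22D1-203 had 0.963% and 0.340%. The S1KO libraries had 11.2% and 4.57%, the S2KO libraries 24.0% and 13.1%, and the DKO libraries 7.12% and 6.28%. All excised values were above EV, and S2KO was the highest. The rise of 10.4 points had an edgeR adjusted p of 2.12e-04, lost without EV replicate 2 (0.185), and limma did not make it (adjusted p = 0.832 and 0.552 at pseudocounts of 0.5 and 0.1). The short form TSC22D1-201 had 87.8% and 88.6% in EV and 34.0% to 79.0% after excision without passing the test (edgeR adjusted p = 1).

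PMP22 encodes a peripheral myelin protein with 4 membrane spans. Its total was 3.42 and 4.68 TPM in EV and 6.68 to 21.6 TPM after excision (edgeR adjusted p = 0.135). The gene thus met the limit of 5 TPM only through its excised libraries. PMP22-201, which has the same 480 coding bases as PMP22-203, held 46.4% and 9.49% in EV. It held 2.22% in DKO replicate 2 and was listed at or near 0 in the other excised libraries (edgeR adjusted p = 0.0313). The EV libraries lay far apart here, and the call was lost when any of 6 libraries was left out (edgeR adjusted p from 0.0545 without S2KO replicate 2 to 0.277 without EV replicate 1). ASB3-211, a non-coding transcript of a SOCS box gene, held 18.4% and 6.84% in EV and 0 to 2.10% after excision (edgeR adjusted p = 8.50e-04). Without EV replicate 1 that call was lost (edgeR adjusted p = 0.123), and DESeq2 did not make it (adjusted p = 0.242). In limma at pseudocounts of 0.5 and 0.1 the adjusted p was 0.0689 and 0.136 for PMP22-201, and 0.0647 and 0.183 for ASB3-211.

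Other called transcripts differed by internal exons or ends. PHACTR2-201, which lacks the PHACTR2-207 stretch printed above, held 13.0% and 11.1% in EV, and was listed at 0 in 5 excised libraries and at 0.000558% in DKO replicate 1 (edgeR adjusted p = 6.41e-04). Limma did not make this call (adjusted p = 0.964 and 0.655 at pseudocounts of 0.5 and 0.1), and its estimate at 0.5 had the other sign. The total of PHACTR2 fell by 2.78 on the log2 scale (SE 0.38, edgeR adjusted p = 0.0148), from 18.8 ± 0.75 TPM (SD, n = 2) to 2.64 ± 1.73 TPM (SD, n = 6). PHACTR2-207 took 32.6% and 32.3% in EV and 28.1% to 55.8% after excision.

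CEP131-203, with the extra exon sequence printed above, was listed at or near 0 in both EV libraries. Its shares were 0.0605% and 9.33% for S1KO, 9.88% and 5.25% for S2KO, and 21.5% and 15.6% for DKO (edgeR adjusted p = 3.13e-04). S1KO replicate 1 was close to EV and the DKO pair was the highest. VPS13D-212, a short transcript of a lipid transfer protein gene with a separate start, was also at or near 0 in EV. After excision its shares were 25.5% and 30.6% for S1KO, 19.2% and 7.63% for S2KO, and 24.4% and 6.20% for DKO (edgeR adjusted p = 1.72e-11). The VPS13D total was 5.07 ± 0.67 TPM (SD, n = 2) in EV and 7.48 ± 1.10 TPM (SD, n = 6) after excision and did not pass the test (edgeR adjusted p = 0.672). In limma at pseudocounts of 0.5 and 0.1 neither usage call was made, with adjusted p values of 0.343 and 0.479 for CEP131-203 and 0.430 and 0.192 for VPS13D-212.

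ZNF227-202 and ZNF227-208 of a zinc finger gene share a coding sequence of 2244 bases and start 47 bases apart. ZNF227-202 held 1.10% and 1.08% in EV and 6.47% to 24.4% after excision (edgeR adjusted p = 5.91e-04, and 0.0511 without EV replicate 2). The limma adjusted p was 0.169 at a pseudocount of 0.5 and 0.0901 at 0.1. ZNF227-208 held 10.6% and 20.1% against 0.830% to 8.62% without passing (edgeR adjusted p = 0.219). Their starts lie close together, and how far read assignment moved the split was not tested.

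A pair of falls rested on EV replicate 2. PITPNB-205, of the phosphatidylinositol transfer protein beta gene, held 4.38% and 29.8% in EV. It held 2.26% and 2.31% in S1KO and at most 0.146% in S2KO and DKO (edgeR adjusted p = 0.00176). MAX-211, of the gene for the DNA-binding partner of MYC, held 2.16% and 18.8% in EV and 0 to 0.462% after excision (edgeR adjusted p = 6.41e-04). Without EV replicate 2 the adjusted p values were 1 and 0.546. DESeq2 called MAX-211 (adjusted p = 0.0471) and not PITPNB-205 (0.362). In limma at pseudocounts of 0.5 and 0.1 the adjusted p was 0.275 and 0.385 for PITPNB-205 and 0.361 and 0.192 for MAX-211. Neither gene's total passed the test (edgeR adjusted p = 0.870 and 0.504).

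Transcripts were also grouped by start and by end. Transcripts of a gene whose starts lie within 100 bases of the next were summed, and 56 of 36136 start groups of these genes were called by edgeR (38 higher, 18 lower, with 0.13% called over all start groups). With separate groups and at least 10 points, the start groups of FYN, PRKD3, VPS13D and ANK3 rose and those of FGF13, PMP22, HBE1 and ASB3 fell. For ends, 67 of 44073 groups were called (51 higher, 16 lower, 0.131% over all). The large ones were higher for TSC22D1, FYN and VPS13D and lower for FGF13 and PHACTR2. Of the 8 genes with a large start group and the 5 with a large end group, 7 and 4 also had a large called transcript, and FYN did not.

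FYN encodes a SRC-family tyrosine kinase. Its start group was at 0 in both EV libraries. The S1KO libraries had 13.3% and 5.09%, the S2KO libraries 12.4% and 1.16%, and the DKO libraries 21.4% and 18.8% (edgeR adjusted p = 0.0359). The single transcript FYN-203 missed the threshold (edgeR adjusted p = 0.0632). The FYN total was 0.691 and 2.58 TPM in EV and 11.95 to 33.8 TPM after excision (edgeR adjusted p = 0.0238), so its EV shares rest on few reads.

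Among the transcripts with large, separate differences that did not pass, several belonged to genes that were low in 1 group. ACSS1-205, of the mitochondrial acetyl-CoA synthetase gene, held 30.4% and 63.0% in EV and 0.419% to 10.4% after excision, with the gene at 0.0902 and 0.0630 TPM in EV (edgeR adjusted p = 0.304). ARHGAP15-202 held 0.696% and 0.432% in EV and 5.05% to 31.0% after excision (edgeR adjusted p = 0.173). That gene was at 53.0 and 58.7 TPM in EV and at 0.477 to 3.32 TPM after excision (edgeR adjusted p = 0.0111). CYB5R2-213, of a cytochrome b5 reductase gene, held 18.6% and 12.3% in EV and 0 to 1.34% after excision (edgeR adjusted p = 0.108), with the gene at 0.866 and 0.938 TPM in EV.

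Other such transcripts came from genes whose totals did not pass the test. STAT3-204, a retained-intron transcript of the STAT3 transcription factor gene, held 11.5% and 4.64% in EV and 22.2% to 32.7% after excision (edgeR adjusted p = 0.186). MAPKAP1-201, of a subunit of the mTORC2 kinase complex, held 5.43% and 2.44% in EV and 11.5% to 22.3% after excision (edgeR adjusted p = 0.287), and has the same 1566 coding bases as MAPKAP1-204. MRTFA-205, of an SRF coactivator gene, held 18.9% and 7.66% against 0 to 5.91% (edgeR adjusted p = 0.137). NBPF14-202 held 11.7% and 8.99% against 31.4% to 46.0% (edgeR adjusted p = 0.430). Its EV shares rest on 21.15 and 12.54 estimated counts, with the gene at 1.68 and 1.15 TPM in EV and 3.49 to 10.7 TPM after excision. NBPF14 belongs to a multigene family whose copies share reads.

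In all, 6 transcripts were called by edgeR, by a DESeq2 likelihood ratio test and by limma on log2 TPM ratios with either pseudocount. Beside PRKD3-201, named above, these were 5 small falls, which lie outside the 10-point rule and were picked after their values were seen. STRN4-204, of a striatin scaffold gene, held 2.504% and 4.31% in EV and at most 0.00147% after excision, with an edgeR adjusted p of 6.69e-15. ATP2A2-207, of the SERCA2 calcium pump gene, held 3.44% and 5.01% in EV and at most 0.0307% after excision (edgeR adjusted p = 3.26e-13). PSMF1-205, of a proteasome inhibitor gene, held 6.07% and 5.17% in EV and at most 0.476% after excision (edgeR adjusted p = 0.00594). TRAP1-216, of a mitochondrial HSP90-type chaperone gene, held 1.87% and 1.76% against at most 0.0530% (edgeR adjusted p = 1.70e-11). LMNB1-204, a non-coding transcript of the lamin B1 gene, held 1.71% and 6.27% and was listed at or near 0 in the 6 excised libraries (edgeR adjusted p = 1.98e-07).

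Calls in the gene lists are read against the 0.278% called over all transcripts tested. Among SR proteins and related activators, 2 of 241 tested transcripts rose and none fell (0.83%), and among hnRNP proteins 1 of 278 rose and 1 fell (0.719%). Other splicing regulators had 4 of 284, all rises (1.41%). These 3 shares were above that of all transcripts but rest on 2 to 4 calls each. The 25 spliceosome core genes had none in 214 tested transcripts and the 16 nonsense-mediated decay factors none in 138, by edgeR as by DESeq2 and limma, with 5 and 4 at an unadjusted edgeR p under 0.05. The leading transcript's share differed by a median of 2.62 points in the SR genes, 2.33 in the hnRNP genes and 3.62 in the spliceosome core, beside 2.35 points over all 8108 genes.

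Several of these calls came from the DKO pair. SRSF2-201, of the SR protein SRSF2, stayed at or under 0.103% outside DKO, where it held 12.9% and 13.8% (edgeR adjusted p = 0.0216). HNRNPL-212 held 0.502% and 1.54% in EV, 0.943% to 1.90% in S1KO and S2KO, and 13.0% and 15.9% in DKO (edgeR adjusted p = 0.0117). TIAL1-211, a retained-intron form of an RNA-binding protein gene, was at or near 0 in EV, S1KO and S2KO and at 5.57% and 4.59% in DKO (edgeR adjusted p = 0.01004). RPL13-211, of a ribosomal protein gene, stayed at or under 0.103% outside DKO, where it held 8.94% and 13.6% (edgeR adjusted p = 0.00949). In these 4 genes S1KO and S2KO lay near EV. HNRNPA1-206 fell from 2.63% and 2.76% in EV to between 0.0583% and 1.33% in all excised libraries (edgeR adjusted p = 0.00117).

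Among the transcripts of 65 ribosomal protein genes, 3 rose and none fell (0.534%, beside 0.278% over all transcripts). RPL4-216 had the largest difference of the 3, at 1.498% and 1.95% in EV and 7.09% to 18.6% after excision (edgeR adjusted p = 3.05e-04). Ribosomal protein genes and HNRNPA1 have many processed pseudogenes, so their read assignment is uncertain. The erythroid list had HBE1-203 and MYB-202 in 236 tested transcripts (0.847%). MYB-202, a nonsense-mediated decay transcript of a transcription factor gene of blood progenitors, held at most 0.000554% in EV and up to 4.02% after excision, with DKO replicate 2 near 0 (edgeR adjusted p = 6.10e-04).

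In the lists that follow, each share again stands beside 0.278% over all transcripts and rests on at most 3 calls. SNHG15-205 was the single call among snoRNA host genes (0.662%), at 0 in EV and 1.22% to 6.02% after excision (edgeR adjusted p = 3.53e-07). LDHA-219, a nonsense-mediated decay transcript of the lactate dehydrogenase A gene, held 0.2897% and 0.149% in EV, 1.06% to 2.82% in S1KO and S2KO, and 9.75% and 6.44% in DKO (edgeR adjusted p = 0.00198). Metabolic genes had 1 more rise, IDH3B-204, which makes 2 calls in 164 transcripts (1.22%). Cytoskeletal genes had 3 rises in 265 (1.13%), of which MACF1-207 and MACF1-208 stayed under 5%. The third, SEPT9-237 of a septin gene, held at most 0.850% in EV and 2.46% to 11.2% after excision (edgeR adjusted p = 0.0296). Apoptosis regulators had no edgeR call in 182 transcripts (5 at an unadjusted p under 0.05, 0 by DESeq2 and 1 by limma with a pseudocount of 0.5). PRC2 subunits had none in 101 and FGF18 with its neighbours none in 30, by edgeR, DESeq2 and limma, with 2 and 1 at an unadjusted edgeR p under 0.05. REST and its corepressors had 1 fall in 117 (0.855%), CTDSP1-206, which was at 0 in EV replicate 1 and 5.53% in EV replicate 2 (edgeR adjusted p = 7.06e-04).

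EZH2 and REST are the factors that the series set out to inhibit. EZH2-203, the leading transcript of the PRC2 methyltransferase gene, held 47.5% and 41.8% in EV and 43.1% to 48.9% after excision (edgeR adjusted p = 1). REST-201, the full-length transcript of the REST repressor gene, held 76.3% and 77.2% in EV and 61.4% to 75.8% after excision. Its groups did not overlap, but the difference of -7.75 points did not pass the test (edgeR adjusted p = 1). FGF18 had 1 transcript and a mean of 0.0415 TPM and so lay outside the rule.

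Few of these genes were called for their totals. Totals were called in 64 of the 8108 genes by edgeR, 36 higher and 28 lower, with 1.06% called over all genes tested. Among the 163 genes called for usage, 3 also had a called total: FGF13 and HBE1 rose and PHACTR2 fell. At an unadjusted edgeR p under 0.05 there were 27 totals among the 163 genes and 868 among the 8108. With so few totals called, the overlap does not show whether usage and totals differ in separate genes.

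The excisions taken singly share their EV controls, so their counts are given side by side. Against EV, edgeR called 204 transcripts in S1KO (0.283% over all tested), 224 in S2KO (0.307%) and 660 in DKO (0.903%). The DKO calls were 260 higher and 400 lower, while S1KO had 101 and 103 and S2KO 119 and 105. Comparisons between excised groups gave similar counts. S2KO against S1KO gave 187 calls, DKO against S1KO 592 and DKO against S2KO 676. DKO also had the lowest depth, and its part in these counts was not tested.

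**Figure D3:**
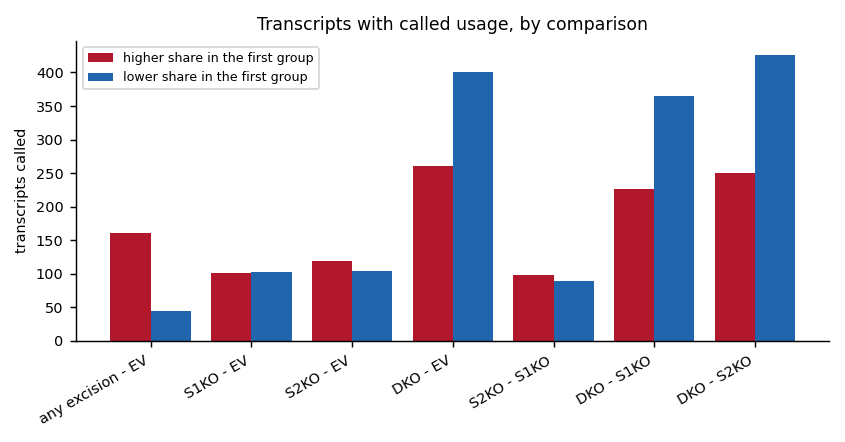
Number of transcripts with called usage (y axis; edgeR adjusted p under 0.05) in each comparison (x axis), with those higher in the first group in red and those lower in blue. S2KO against S1KO gives 187 calls, near the 204 and 224 of S1KO and S2KO against EV, and each comparison with DKO gives at least 592.

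For the large differences, the single excisions read as follows. PRKD3-201 was called in S1KO, S2KO and DKO with edgeR adjusted p values of 0.00170, 0.00492 and 2.14e-04, and its shares rose by 12.9, 11.7 and 13.7 points. ANK3-202 was called in all 3 as well (edgeR adjusted p = 6.14e-05, 0.00143 and 2.08e-05). FGF13-204 was called in DKO (edgeR adjusted p = 0.00481) and not in S1KO (0.280) or S2KO (0.604), where its share was 28.3 and 25.1 points lower. MAX-211 was called in none of them (edgeR adjusted p from 0.0607 to 0.465).

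The leading transcript, the one with the largest share, was the same in all 8 libraries for 6204 of the 8108 genes (76.5%). Its median share was 54.4%, it exceeded 90% in 801 genes, and 6218 genes had at least 2 transcripts above 10%. It was a protein-coding transcript in 7058 genes, a retained intron in 247 and a nonsense-mediated decay transcript in 183. Within a group the leader differed between replicates in 879 genes for EV, 712 for S1KO, 829 for S2KO and 610 for DKO. Between an EV and an excised library it differed in 679 to 1131 genes over the 12 pairs. The values within and between groups overlapped.

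**Figure D4:**
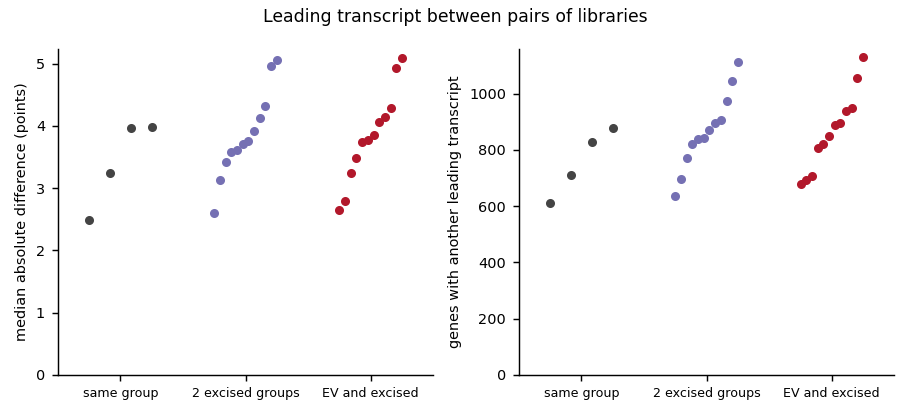
Each point is a pair of libraries, by kind of pair (x axis). The left panel gives the median absolute difference in the share of the leading transcript over the 8108 genes (points), and the right panel the number of genes with another leading transcript. Pairs of EV and excised libraries span 2.65 to 5.10 points and the replicate pairs 2.49 to 3.98 points.

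Between group means another transcript led in 548 genes (6.76%). In 37 of them both transcripts had groups that did not overlap, and over all transcripts tested 8.25% had such groups. Of the 37 genes, 4 had a mean level under 1 TPM in EV. The leader was protein coding in 18 of the 37 in EV and in 28 after excision, and a retained intron in 7 and 1. The 37 were picked for their separate groups, and their leader types were not tested against those of other genes. ANK3 was the 1 gene of the 37 in which either transcript passed the edgeR test. That test sets a transcript's counts against its whole gene, so a leading transcript that did not pass is not shown to be unchanged. WSB1, a SOCS box gene, had its retained-intron transcript at 22.0% and 44.6% in EV and 8.33% to 18.9% after excision, and a protein-coding transcript at 35.07% and 14.2% in EV and 36.9% to 48.6% after excision. For UROS, a heme synthesis enzyme, a first protein-coding transcript held 38.3% and 44.6% against 15.7% to 32.9%, and a second held 32.2% and 30.6% against 35.06% to 53.4%. The mean UROS total was 11.8 TPM in EV and 30.5 TPM after excision (edgeR adjusted p = 0.0367), so the lower share need not be a lower level. In EV the WSB1 leader itself differed between the replicates.

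Transcript classes differed by under 2 points. Protein-coding transcripts took 77.2% and 77.1% of the TPM of the 8108 genes in EV and 78.0% to 80.6% after excision, with DKO highest at 79.7% and 80.6%. The difference of 1.77 points had an exact permutation p of 0.0714 (two-sided, 28 splits, smallest possible 0.0357) and an adjusted p of 0.357 over 5 classes. Retained introns took 8.32% and 7.47% in EV and 6.68% to 8.11% after excision (exact permutation p = 0.464). Nonsense-mediated decay transcripts took 3.36% and 3.26% in EV and 3.17% to 3.44% after excision (exact permutation p = 0.679). Transcripts of the remaining types took 4.85% and 6.33% in EV, 4.48% to 5.82% in S1KO and S2KO, and 2.87% and 2.41% in DKO.

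**Figure D5:**
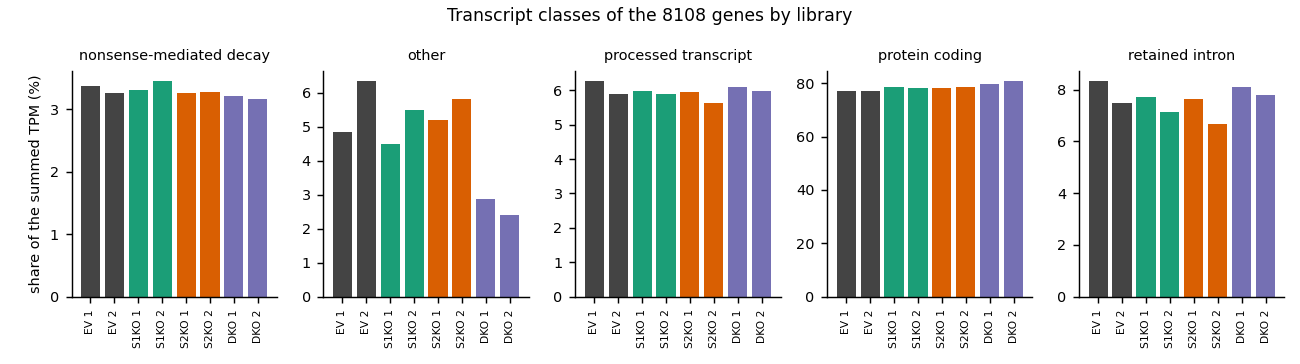
Share of the summed TPM of the 8108 genes (y axis, %) taken by each transcript class, by library (x axis), with groups in colours and each panel on its own scale from 0. Protein-coding transcripts take 77.1% to 80.6%, and the EV and excised values of retained-intron and nonsense-mediated decay transcripts overlap.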

How the data were processed

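RNA was sequenced from K562 cells as ribosomal-RNA-depleted stranded total RNA, per the labels' protocols. The authors deposited 1 transcript table per library with estimated counts and TPM, and the submitters' processing notes name Trimmomatic 0.38, kallisto 0.44.0 and the build hg19 (annotation release not given in the sources used here). Identifiers were matched to GENCODE 29 for 182238 of 215170 transcripts (84.69%), which hold 87.8% to 90.4% of the estimated counts. Shares were computed from TPM. Tests used diffSpliceDGE of edgeR 4.0.16 (R 4.3.3) on the rounded estimated counts, excised against EV, after filterByExpr, TMM scaling and a robust quasi-likelihood fit, with Simes p values per gene. The usage log2 of diffSpliceDGE sets a transcript's change in counts against that of its whole gene. It can stay small for a transcript with most of the gene's counts while the share of TPM moves. For REST-201 it was -0.00848 beside a share difference of -7.75 points. Code was tested on simulated data. Alternatives used DESeq2 1.42.0 and limma 3.58.1 among others.

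Members and the 14 gene lists were chosen with earlier results of these data known. The text names, in protein-coding genes, up to 12 transcripts in each direction with a difference of at least 10 points and separate groups, called ones first and then those with the lowest p. It also names transcripts of EZH2 and REST and up to 4 called transcripts with the lowest p in each list. Of these, 1 transcript is not reported here, nor is the summed level of the lymphoid markers. The drug-treated libraries of the series were not analysed here.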

Additional observations from a re-analysis of the deposited data

Results flagged for a closer look

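In groups of 6, chance sets 1 sample apart in about 1 in 20 groups, and the excised libraries are from 3 groups. That rate is for normally distributed values, which shares mostly at or near 0 are not. Of 29 sets of values looked at, single libraries stood apart from the other excised libraries for 5 transcripts. For PMP22-201 it was DKO replicate 2, with a share of 2.222%, and for HBE1-203 it was S2KO replicate 2, with 2.583%. PHACTR2-201 had 0.0005583% in DKO replicate 1 and 0 in the others, which is no measurable amount. MAX-211 had 0.4623% in S2KO replicate 1. ACSS1-205 was highest in S2KO replicate 2 at 10.42%.

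PITPNB-205 differed between the excised groups. Its usage was lower in S2KO than in S1KO (edgeR adjusted p = 0.01499) and lower in DKO than in S1KO (edgeR adjusted p = 0.0006505).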

How the results depend on the processing

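Against 205 called transcripts and 163 genes, one mean per group gave 381 and 287, a mean share of at least 5% 16 and 12, limma with a pseudocount of 0.5 114 and 27, and with 0.1 39 and 21. RLE size factors, no further filter, DESeq2 and leaving out DKO gave 206, 272, 232 and 188 transcripts, but only 71 of the DESeq2 calls were shared. Leaving out each library gave 152 to 287 transcripts and 105 to 217 genes. For single excisions the ranges were 148 to 276 (S1KO), 199 to 259 (S2KO) and 311 to 706 (DKO). Start groups gave 134 with one mean per group and 35 to 81 without each library. End groups gave 124, 40 with DKO left out, and 41 to 93. Gene totals gave 325 with DESeq2 and 13 to 107 without each library. Another transcript led in 353 genes by estimated counts, in 204 genes at 20 TPM or more, and in 511 to 776 without each library. Without each library the class differences ran from 1.428 to 1.959 points (protein coding), -0.8107 to 0.03741 (retained intron), -0.0854 to 0.01787 (nonsense-mediated decay), -0.3331 to 0.04534 (processed) and -1.951 to -0.4671 (other). Usage of RPL13-211 turned to -0.5417 (log2) with DKO left out, whose libraries hold its high values. That of PHACTR2-201 turned to 0.1482 with limma and a pseudocount of 0.5. The PHACTR2 total was only 0.9533 to 4.955 TPM after excision, and the part of the pseudocount was not tested. Start and end groups and leaving out DKO were added after seeing the data. Same-numbered libraries deviated together among EV, S1KO and S2KO (correlations 0.2894, 0.415 and 0.3303) but not with DKO (-0.05908, -0.01917 and -0.01397). The labels give no shared batch and not every pair was above 0.1, so pairing was not used; among those 3 groups the leading shares of same-numbered libraries differed by 2.595 to 3.491 points and of others by 3.421 to 4.291. A replicate block gave 183 transcripts, 162 of them shared, and 146 genes, and 3 of 32 named calls missed the threshold with it. Without EV replicate 1, 19 of 32 named calls were lost, and without EV replicate 2, 19 of 31. Read assignment error is in none of these values, and an EV pair of 2 libraries sets the spread of the controls.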
